A study of Mus musculus with 6 samples.

Results

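M1 polarization among irradiated macrophages was read from 2 of the 6 RNA-seq libraries of the series, RM1 and RM0. The genes with at least 10 counts in 1 of these 2 libraries were taken, which gave 11713 of the 24062 genes counted. RM0 was RAW264.7, a mouse macrophage cell line, exposed to 10 Gy of gamma radiation without a polarizing stimulus. RM1 received LPS at 100 ng/mL and IFN-γ at 20 ng/mL for 24 h and the same dose of radiation, and both were harvested 24 h after exposure. The non-irradiated counterparts M0 and M1 gave the reference for the size of the M1 response. M2 and RM2, which received IL-4 at 20 ng/mL without and with radiation, entered the fitted models only. Each library was made from RNA combined from 5 wells, so 1 library stood for each condition and no difference between RM1 and RM0 had a replicate check. All groups were cultures of 1 transformed cell line, for which the labels gave bone marrow as the tissue. Whether the non-irradiated cells were cultured for the additional time, and whether LPS and IFN-γ stayed on the irradiated cells, was not given in the sources used here. Radiation and time in culture therefore cannot be told apart where RM1 is set against M1. The same holds where the ratio of RM1 against RM0 is set against that of M1 against M0. Below, the words after irradiation name the libraries and not a cause.

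In M1 polarization, IFN-γ acts through the receptor-bound kinases JAK1 and JAK2 on genes with gamma-activated sites, among them the transcription factor IRF1, which turns on guanylate-binding proteins and the machinery of antigen presentation. LPS acts through TLR4 on NF-kB, which drives cytokines, chemokines and prostaglandin synthesis, and it also induces interferon-β, whose signal passes through a complex with STAT2 and IRF9 to the interferon-stimulated response elements of antiviral genes. Macrophages with an M1 programme are known for the production of nitric oxide by iNOS, for inflammatory cytokines, for a shift to glycolysis and for an arrest of growth.

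The counts summed to 18660435 in RM0 and 18870516 in RM1, within a range of 17894937 to 18870516 over the 6 libraries. Values below are raw counts per library and log2 ratios of TMM-scaled counts with a prior count of 2 added, on which equal counts in RM0 and RM1 give 0.23. Intervals in parentheses are exact Clopper-Pearson 95% intervals of a log2 ratio and cover counting error only. The macrophage label was borne out by Lyz2, Cd68, Itgam, Csf1r and Spi1, each with at least 4426 counts in both libraries, while Mertk had 5 counts in RM0 and 4 in RM1. Over 8 lymphocyte markers the level summed to 0.255 CPM in RM0 and 0.24 CPM in RM1, with 6 of the 8 at 0 in both. Over 8 epithelial and endothelial markers it summed to 1.68 and 2.82 CPM, with 4 at 0 in both. Over 8 fibroblast markers it summed to 8.78 and 46.8 CPM, nearly all of it Dcn, and 3 of them, Col1a2, Col3a1 and Thy1, were at 0 in both. The granulocyte and dendritic list summed to 342 and 3070 CPM, nearly all of it S100a8, while Elane and Mpo had at most 1 count in either library. Dcn and S100a8 were at least 2-fold higher in M1 than in M0 as well. Scaling by library totals in place of TMM moved the median of all genes from -0.01 to -0.25 in RM1 against RM0 and from -0.03 to -0.46 in M1 against M0, and ratios are relative to that shift.

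Promoter windows are shown for the genes of the fixed lists that led the rises, the falls and the gains and losses against M1, to show which interferon and NF-kB motifs, if any, they hold. The windows reach from 250 bases before to 50 bases after the start of the RefSeq gene on GRCm38.p6. They belong to Gbp5 (chr3:142496684-142496983, plus strand), Gbp2b (chr3:142594597-142594896, plus strand), Cx3cr1 (chr9:120068247-120068546, minus strand) and Ptgs1 (chr2:36230176-36230475, plus strand). Capitals mark matches, on either strand, to the gamma-activated site TTCNNNGAA, the interferon-stimulated response element (GAAA, any 2 bases and GAAA again) and the NF-kB motif. The Gbp5 window held 2 matches to the first, 1 to the second and 1 to the third, none overlapping, and the Gbp2b window held 1 response element.
Gbp5: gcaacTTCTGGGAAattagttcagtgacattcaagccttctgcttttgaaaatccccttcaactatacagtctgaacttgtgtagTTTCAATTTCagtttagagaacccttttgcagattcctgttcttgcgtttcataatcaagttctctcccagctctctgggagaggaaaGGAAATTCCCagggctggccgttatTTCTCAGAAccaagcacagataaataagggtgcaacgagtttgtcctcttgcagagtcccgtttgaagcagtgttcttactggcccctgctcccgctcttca
Gbp2b: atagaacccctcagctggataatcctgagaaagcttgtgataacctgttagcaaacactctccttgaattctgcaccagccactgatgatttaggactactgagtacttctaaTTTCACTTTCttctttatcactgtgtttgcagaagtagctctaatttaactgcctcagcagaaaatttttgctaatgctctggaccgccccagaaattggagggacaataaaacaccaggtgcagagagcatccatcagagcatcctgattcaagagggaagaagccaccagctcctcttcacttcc
Cx3cr1: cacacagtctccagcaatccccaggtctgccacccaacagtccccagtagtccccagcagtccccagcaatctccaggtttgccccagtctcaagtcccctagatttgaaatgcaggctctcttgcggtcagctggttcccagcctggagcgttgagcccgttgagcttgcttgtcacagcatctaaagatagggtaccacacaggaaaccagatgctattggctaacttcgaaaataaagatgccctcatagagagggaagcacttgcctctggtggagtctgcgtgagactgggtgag
Ptgs1: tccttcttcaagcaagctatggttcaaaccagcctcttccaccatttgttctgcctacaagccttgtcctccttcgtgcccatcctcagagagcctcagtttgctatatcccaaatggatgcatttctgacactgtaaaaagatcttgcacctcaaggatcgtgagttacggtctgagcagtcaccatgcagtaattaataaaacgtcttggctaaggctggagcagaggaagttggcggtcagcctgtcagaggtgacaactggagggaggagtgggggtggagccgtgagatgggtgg

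Over all 32851 RefSeq windows of this length, 3.44% held a response element, 8.3% a gamma-activated site and 8.46% an NF-kB motif. A window was found for 556 of the 722 genes that were at least 2-fold higher in RM1 than in RM0, and 11.2% of them held a response element, against 3.86% of the 9302 tested genes with a window and 3.06% of the genes at least 2-fold lower. The other two motifs were near their share among tested genes, the gamma-activated site at 9.53% against 8.22% and the NF-kB motif at 13.1% against 12.5%. The share with a response element was 88.9% over the 9 interferon-inducible GTPases with a window and 61.1% over 18 antiviral genes. The NF-kB motif was in 60.0% of 15 windows of NF-kB subunits and feedback inhibitors, against 12.5% of the tested genes. Matches describe these letters in these windows and show no binding.

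Most of the M1 response was present among the irradiated cells, with the same direction and a smaller size. Differences of at least 2-fold were counted, a comparison of 2 libraries that carries no p-value. RM1 was higher than RM0 at 722 genes, 6.16% of those tested, and lower at 922 genes, 7.87%. M1 was higher than M0 at 1104 genes, 9.37% of 11778, and lower at 1569 genes, 13.3%. By library totals, RM1 was higher at 498 and lower at 1493 genes. Closest to the 2-fold limit were Inpp4a at 1.001 and Tmem51 at -1.002 just inside, and Fbxo30 at 1.0 and Jdp2 at -1.0 just outside.

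Of the 1104 genes higher in M1, 545 were also at least 2-fold higher in RM1, 49.4% of that list and 75.5% of the 722. Of the 1036 that were read in the irradiated pair, 96.8% had the same direction, against 79.5% of all genes averaging 50 counts or more. Another 458 were higher by less than 2-fold, 27 were lower by less than 2-fold, and 6 were at least 2-fold lower in RM1 than in RM0. Of the 1569 genes lower in M1, 678 were also at least 2-fold lower in RM1, 43.2% of that list and 73.5% of the 922, and 4 went at least 2-fold the other way. The pairs share no library. Both ways of choosing gave the larger ratio to the non-irradiated pair. The genes called higher in M1 had a median log2 ratio of 1.49 there and 1.05 in RM1 against RM0, while the genes called higher in RM1 had a median of 1.52 in their own pair and 1.70 in M1 against M0.

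The share of genes that passed 2-fold in RM1 rose with the size of their M1 response. A fixed threshold on 2 correlated ratios largely brings such a rise about. For this, genes averaging 50 counts or more across RM0, RM1, M0 and M1 were ordered by their M1 against M0 ratio. All 20 genes with a log2 ratio above 5 were at least 2-fold higher in RM1, at a median of 4.37 against 6.56 in M1. Between 3 and 5 it was 98.5% of 68 genes, between 2 and 3 it was 94.8% of 116 genes, and between 1 and 2 it was 37.5% of 597 genes. Ordered by the mean of the 2 ratios, which favours neither pair, the 61 genes at 3 or above had a median of 3.64 in RM1 against RM0 and 4.45 in M1 against M0, and 91.8% of them had the smaller ratio in the irradiated pair. By library totals this share was 82.2% of 45 genes. Across 10122 genes Spearman's rho between the 2 ratios was 0.798 and Pearson's r was 0.862, as a description over genes, which are not independent and come from the same 4 libraries. The ratio of RM1 against RM0 also ran with the GC content of the transcript, at a Spearman's rho of -0.247 over 11612 genes, against 0.0635 in M1 against M0. With that trend removed 722 genes were higher and 858 lower, and 562 and 662 of the genes called higher and lower in M1 stood the same way in RM1. In bulk RNA, fewer responding cells and less RNA per responding cell cannot be told apart.

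**Figure D1:**
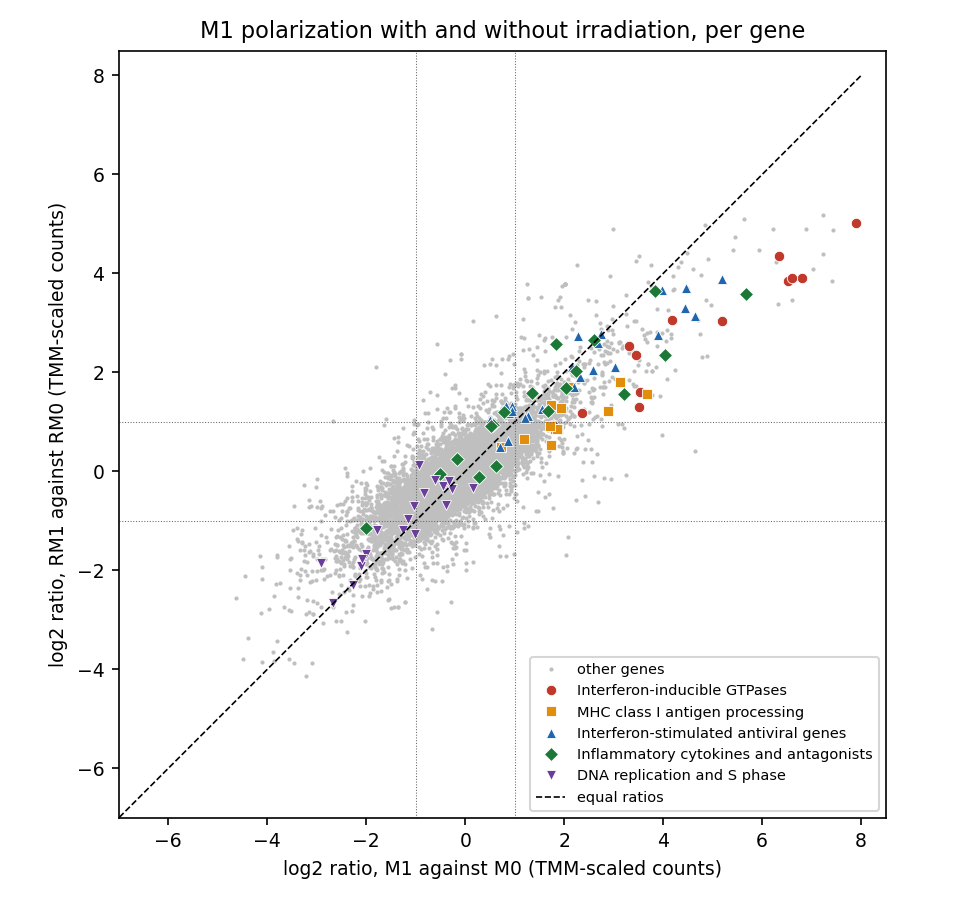
Each point is 1 of the 11713 genes tested, with the log2 ratio of M1 against M0 on the x axis and of RM1 against RM0 on the y axis, and 5 gene lists in colour. Dotted lines mark 2-fold and the dashed line marks equal ratios. The interferon-inducible GTPases and MHC class I genes lie below the dashed line with 1 exception, the antiviral genes and cytokines lie closer to it.

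An M1 effect shared by irradiated and non-irradiated cells was fitted over all 6 libraries with edgeR's quasi-likelihood test, in which the 2 irradiation states stand in for replicates. It passed at an adjusted p under 0.05 as higher for 2739 of 11804 genes, 23.2%, and as lower for 2824, 23.9%. A second fit tested, at 1 residual degree of freedom, whether RM1 departed from M1 by more than RM0 and RM2 departed from M0 and M2. The M1 effect was larger after irradiation at 460 genes, 3.9%, and smaller at 532 genes, 4.51%. By library totals these were 1405 and 229, and DESeq2 called 38 and 114. Here larger and smaller are signed, so that a larger value at a gene that M1 lowers is a smaller fall. Of the genes at least 2-fold higher in M1 and read in RM1, 294 passed with a smaller rise and 10 with a larger one. Of those at least 2-fold lower in M1, 233 passed with a smaller fall. Chosen on RM1 against RM0 instead, 126 of the higher genes passed with a smaller rise and 28 with a larger one. The 294 genes had a median log2 ratio of -0.70 in RM1 against M1 and 0.14 in RM0 against M0. The fit picks genes by how far RM1 departs from M1. These medians therefore follow in part from the choice and do not show where the gap lay.

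IFN-γ signalling and its transcription factors split into members that stood in full and members that did not. Of 16 genes, 8 were at least 2-fold higher in RM1 and 0 lower, against 10 higher in M1. The median log2 ratio was 1.19, against -0.01 over all genes. The difference passed as smaller for 6 of 16, against 4.51% of all genes, and for 4 by library totals.

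Irf1 (chromosome 11 of GRCm38, 53770014 to 53778374), an early transcription factor of the IFN-γ response, had 419 counts in M0, 8628 in M1, 404 in RM0 and 1710 in RM1. RM1 was above RM0 by 2.31 (2.16 to 2.47), a 4.95-fold difference, and M1 was above M0 by 4.78. The 2 unpolarized libraries were nearly equal and RM1 lay far below M1, and the difference of -2.39 passed at an adjusted p of 1.79e-35. Irf8, a myeloid factor that partners with IRF1, had 1493 counts in M0, 6225 in M1, 1552 in RM0 and 2052 in RM1. Its ratio was 0.64 (0.54 to 0.732) against 2.48, and it did not reach 2-fold among irradiated cells (difference -1.69, adjusted p 4.1e-20). Batf2, an IFN-γ-induced partner of IRF1, had 24 counts in M0, 575 in M1, 15 in RM0 and 72 in RM1, a ratio of 2.34 against 4.89. Socs1, the feedback inhibitor of JAK kinases, had 63 counts in RM1 and 205 in M1, with a ratio of 1.54 against 3.78 (adjusted p 0.000865).

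Jak2, Stat2 and Socs3 stood close to their M1 size. Jak2 had 1381 counts in M0, 3162 in M1, 1452 in RM0 and 4141 in RM1, and its ratio was 1.74 in the irradiated pair and 1.62 in the other. Stat2, a subunit of the complex that binds response elements, had 1272 counts in RM0 and 3960 in RM1, with 1.87 against 2.08 (adjusted p of the difference 0.671). Socs3, the inhibitor that IL-6 family signals induce, had 14248 counts in RM0 and 36936 in RM1, with 1.61 against 1.75. For these 3 genes the difference did not pass. Irf7, the amplifier of type I interferon, rose from 6777 to 39961 counts, a ratio of 2.79 against 3.67. It passed as smaller by edgeR (adjusted p 0.0202) and not in DESeq2 (0.74). The receptor chain Ifngr1 had 447 counts in RM0 and 364 in RM1, a ratio of -0.06 (-0.267 to 0.139).

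Interferon-inducible GTPases, which attack vacuoles that hold pathogens, gave the largest list median and the largest loss against M1. Of 14 members read, 13 were at least 2-fold higher in RM1 and 0 lower, with a median of 2.79, and in M1 it was 14 of 15 with a median of 3.54. The median difference between the 2 ratios was -1.97, and the difference passed as smaller for 9 of 14, or 8 by library totals. Gbp2 (chromosome 3, 142624575 to 142638008) had 86 counts in M0, 6032 in M1, 57 in RM0 and 726 in RM1. RM1 was 14.5-fold above RM0, a log2 ratio of 3.85 against 6.52, and lay 3.22 below M1 on the log2 scale (difference -2.86, adjusted p 2.2e-21). Gbp5, whose promoter window is printed above, had 14 counts in M0, 2872 in M1, 12 in RM0 and 385 in RM1, and its 32.2-fold rise in RM1 was the third largest among genes averaging 50 counts or more in the pair. Gbp2b, the other printed member, had 53 counts in M0, 4580 in M1, 46 in RM0 and 608 in RM1, with a ratio of 3.90 against 6.80. For all 3 the unpolarized libraries had few counts and RM1 held much less RNA than M1. The immunity-related GTPases moved likewise, as Igtp had 326 counts in RM0 and 843 in RM1, 1.60 against 3.54, and Ifi47 had 125 and 267, 1.31 against 3.52. Iigp1 had 0 counts in RM0, 13 in RM1 and 138 in M1. Gvin1 was the exception, with 95 counts in RM0 and 195 in RM1 and a ratio of 1.25 against 0.82, but its listed positions cover only 0.197% of the annotated gene. Gbp genes are near-identical copies in part, and how the counting divided reads between them is uncertain.

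By ratio, interferon-stimulated antiviral genes stood nearly in full, while their summed level was 5960 CPM in M1 and 4420 CPM in RM1. The list median of the log2 ratio was -0.42 in RM1 against M1 and -0.2 in RM0 against M0. Of 24 members, 22 were at least 2-fold higher in RM1 and 0 lower, against 17 in M1, and all 17 were among the 22. The medians were 1.97 and 2.23, and 17 of 24 passed 2-fold in RM1 by library totals. The shared M1 effect passed as higher for 24 of 24, against 23.2% of all genes, while the difference passed by edgeR as smaller for 3, Ifit2, Oasl2 and Zbp1. Rsad2, which encodes the antiviral enzyme viperin, had 1061 counts in M0, 12449 in M1, 864 in RM0 and 9317 in RM1, a ratio of 3.66 (3.56 to 3.77) against 3.97. Isg15, a ubiquitin-like modifier, had 2841 counts in M0, 12669 in M1, 2394 in RM0 and 8439 in RM1, with 2.05 against 2.58. Both were close to their M1 ratio and the difference did not pass (adjusted p 0.765 and 0.275). Ifit1, which binds viral RNA caps, had 174 counts in RM0 and 995 in RM1 with the larger ratio in the irradiated pair, 2.73 against 2.28, and Ifih1, the sensor MDA5, had 1019 and 2188, with 1.33 against 0.82. For neither did the difference pass (adjusted p 0.136 and 0.0562). Ifit2 had 185 counts in RM0 and 1570 in RM1, 3.30 against 4.45 (adjusted p 5.23e-07). Mx and Oas genes share reads between copies, and their separate values are uncertain.

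MHC class I antigen processing was read at less than the M1 size in every member. Of 13 genes, 6 were at least 2-fold higher in RM1 against 12 in M1, with medians of 0.91 and 1.86. All 13 had the smaller ratio in the irradiated pair, and for 9 the difference passed, or 8 by library totals and 5 of the 11 for which DESeq2 gave an adjusted p. The immunoproteasome subunit Psmb10 (chromosome 8, 105935728 to 105938392) had 233 counts in M0, 2245 in M1, 241 in RM0 and 608 in RM1. Its ratio of 1.56 (1.35 to 1.79) set against 3.68 was the widest gap of the list (difference -1.99, adjusted p 2.09e-19). Psmb9 had 233 counts in RM0 and 468 in RM1, with 1.23 against 2.88. The peptide transporter Tap1 had 1590 and 4725 counts, with 1.80 against 3.13, and its partner Tap2 had 1436 and 1761, with 0.53 against 1.74. All 4 of these processing genes had less RNA in RM1 than in M1. The chains at the cell surface had narrower gaps. B2m had 11536 counts in RM0 and 31954 in RM1, a ratio of 1.70 against 2.14, and H2-K1 had 1720 and 3716, with 1.34 against 1.73. For B2m and H2-K1 the difference did not pass (adjusted p 0.0849 and 0.429). H2-D1 had 17982 and 37456 counts, with 1.29 against 1.94, and passed as smaller (adjusted p 0.0206, 0.0817 in DESeq2). Among MHC class II genes, 7 of 10 were read, 0 were higher and 3 lower, against 7.87% of all genes lower. Of these 3, H2-Eb1 had 28 counts in RM0 and 1 in RM1, and H2-DMb2 had 13 and 0, so both rest on few reads. H2-DMa had 243 and 86, a ratio of -1.25 against -0.74. Cd74, the invariant chain, had 22133 counts in RM0 and 16120 in RM1, a ratio of -0.22, and Ciita, the factor that switches class II on, had 0 and 1 count.

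**Figure D2:**
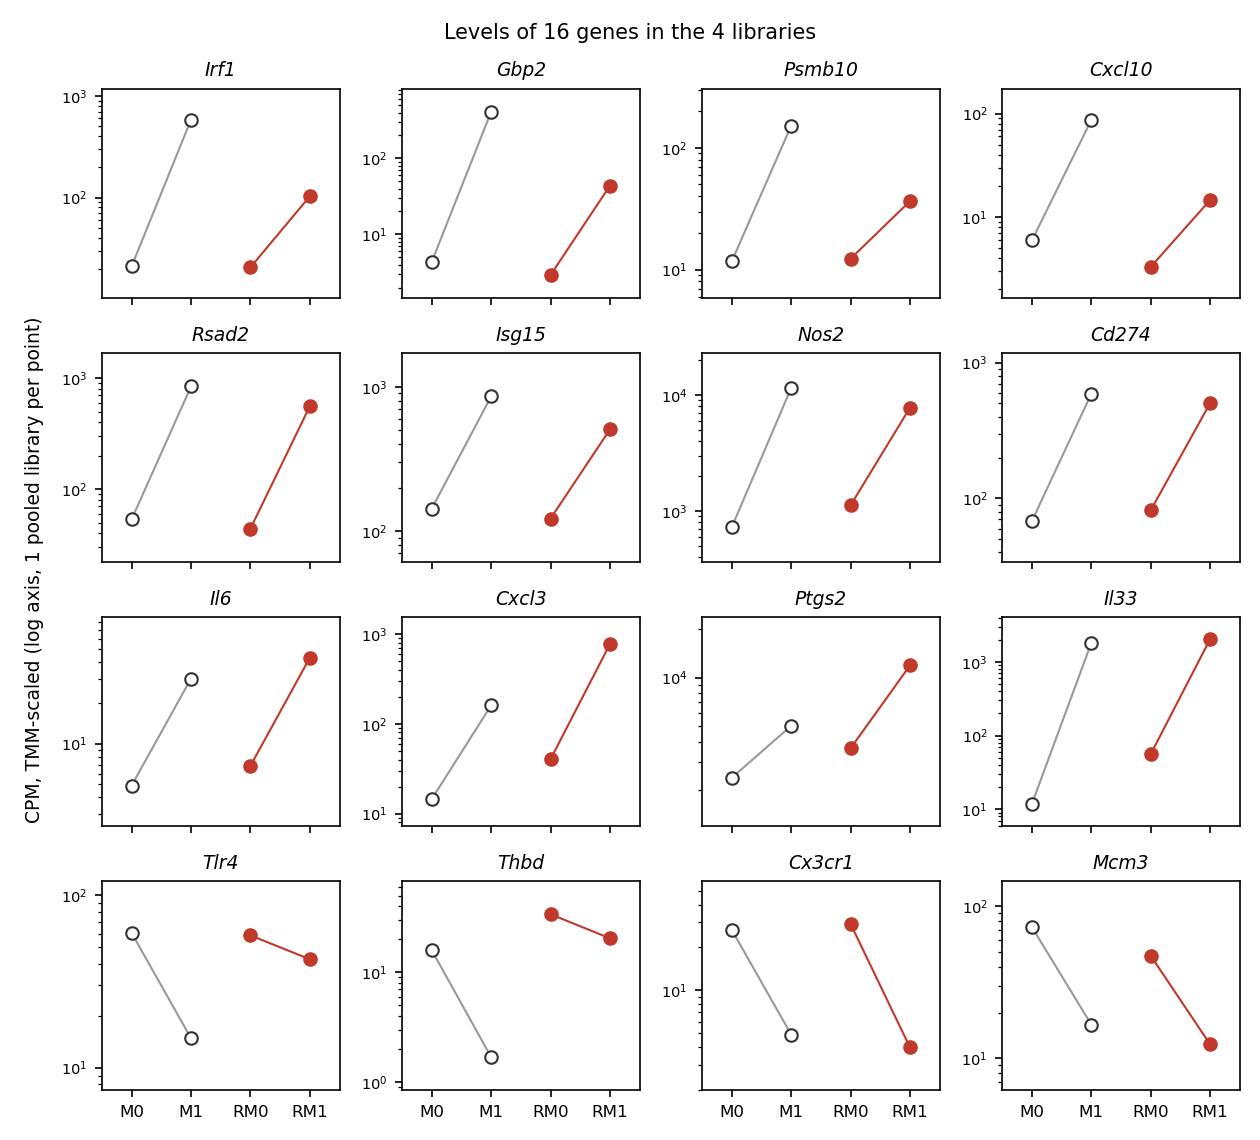
TMM-scaled CPM on a log axis of 16 genes in M0, M1, RM0 and RM1, 1 pooled library per point, with lines joining the unpolarized and polarized library of each pair. Irf1, Gbp2, Psmb10 and Cxcl10 reached lower levels in RM1 than in M1, while Il6, Cxcl3 and Ptgs2 reached higher ones.

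Most costimulatory molecules were higher in both pairs. Of 8 costimulatory and adhesion molecules read, 6 were at least 2-fold higher in RM1, the 6 that were higher in M1, and the median was 1.31 against 1.90. The other 2 were the costimulatory ligand Icosl, at 0.39 (-0.105 to 0.918) against -0.36, and the adhesion molecule Icam1. The ratio in the irradiated pair lay below that in M1 for 7 of the 8, all but Icosl, with a median difference of -0.68. Cd86 (chromosome 16, 36603869 to 36666077) encodes a costimulatory ligand whose protein the study read by flow cytometry as an M1 marker. Its RNA had 176 counts in M0, 493 in M1, 183 in RM0 and 319 in RM1. Its ratio of 1.03 (0.768 to 1.3) lay just above 2-fold, below it by library totals, and was smaller than 1.90 in M1 (difference -0.77, adjusted p 0.0177). Cd274, the inhibitory ligand PD-L1, had 1349 counts in M0, 8687 in M1, 1598 in RM0 and 8362 in RM1, a 6.14-fold rise and a ratio of 2.62 against 3.11. Cd80 had 1885 counts in RM0 and 5146 in RM1, the highest of the 4 libraries, with 1.68 against 1.91. Both ligands differed by less than 2-fold between RM1 and M1, and their fitted differences were -0.52 for Cd274 and -0.36 for Cd80. Cd40 reached 1285 counts in RM1 and 2550 in M1, with 1.50 against 2.55 (adjusted p 1.1e-06). Icam1, the ligand of leukocyte integrins, had 3161 counts in RM0 and 2300 in RM1, a ratio of -0.23 against 0.80 in M1.

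Inflammatory cytokines and their antagonists stood at nearly their M1 size. Of 18 members read, 11 were at least 2-fold higher and 1, Il23a, lower, against 10 and 1 in M1, and the same 10 were higher in both pairs. The median difference was -0.07, and the fitted difference passed for 2 genes, both smaller, or by library totals for 2 as smaller and 6 as larger. Il6 had 97 counts in M0, 449 in M1, 134 in RM0 and 724 in RM1, a ratio of 2.65 (2.4 to 2.94) against 2.61. Il1a, the cytokine released on cell damage, had 57, 627, 64 and 702 counts in that order, with 3.64 against 3.83. Il1rn, the receptor antagonist of IL-1, had 32192 counts in RM0 and 112238 in RM1, with 2.03 against 2.24. For these 3 genes the 2 ratios were close and the difference did not pass. Il1b had 2638 counts in M0, 2819 in M1, 4136 in RM0 and 6624 in RM1, with 0.91 against 0.52 (adjusted p of the difference 0.109), while Tnf had 10149 counts in RM0 and 8003 in RM1, a ratio of -0.11. The 2 members that passed as smaller are genes that interferons induce. Il27, a cytokine subunit, had 79 counts in RM0, 350 in RM1 and 1052 in M1, with 2.35 against 4.04 (adjusted p 1.53e-08), and Il18bp, the decoy of IL-18, had 7, 91 and 464 counts, with 3.58 against 5.68 (adjusted p 0.000333).

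Chemokines went both ways against M1. Of 13 members read, 8 were at least 2-fold higher and 1 lower in RM1, and the difference passed as larger for 3, Cxcl3, Cxcl2 and Ccl4, and as smaller for 3, Cxcl10, Ccl6 and Cxcl16. Cxcl3 (chromosome 5, 90786101 to 90788093), a neutrophil attractant, had 288 counts in M0, 2366 in M1, 787 in RM0 and 12848 in RM1. It was 19.1-fold higher in RM1 than in RM0, a ratio of 4.26 (4.16 to 4.37) against 3.45 (difference 1.04, adjusted p 1.1e-06, 0.198 in DESeq2). Cxcl2, which acts on the same receptor, had 35257 counts in M0, 16816 in M1, 35858 in RM0 and 47681 in RM1. It was lower in M1 than in M0, at -0.64, and higher in RM1 than in RM0, at 0.64 (difference 1.13, adjusted p 3.36e-10, 6.26e-07 in DESeq2). Cxcl10, the T cell attractant induced by IFN-γ, had 117, 1278, 64 and 242 counts in M0, M1, RM0 and RM1, with 2.12 against 3.85 (adjusted p 1.88e-06). Its neighbour Cxcl9 had 54 counts in M1, 3 in RM1 and 0 in both unpolarized libraries. Both chemokines of the IFN-γ response were lower in RM1 than in M1. Ccl2 and Ccl5, which attract monocytes and T cells, rose from 1276 to 3690 and from 719 to 7869 counts, with 1.76 against 1.84 and 3.68 against 4.22, and for neither did the difference pass. Ccl22, a chemokine of alternative activation, fell from 802 to 119 counts, a ratio of -2.50 (-2.81 to -2.24) against -2.26.

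Nos2 (chromosome 11, 78920859 to 78960124), which encodes iNOS, had 14393 counts in M0, 169925 in M1, 22038 in RM0 and 129631 in RM1. RM1 was 6.91-fold above RM0, a ratio of 2.79 (2.77 to 2.81) against 3.99, and Nos2 took 0.687% of the RM1 reads and 0.92% of the M1 reads. The irradiated pair started higher and ended lower (difference -1.14, adjusted p 8.76e-11). The arginine transporter Slc7a2, which feeds this enzyme, reached the same level in both polarized libraries, with 165 counts in M1 and 187 in RM1, from 11 in M0 and 21 in RM0. Irg1, which makes itaconate, had 13890 counts in RM0 and 19838 in RM1 and stayed under 2-fold, at 0.75 against 1.58 (adjusted p 3.22e-06). For both cyclooxygenases the irradiated ratio was the higher of the pair. Ptgs2, the inducible cyclooxygenase, had 47271 counts in M0, 74139 in M1, 71098 in RM0 and 198747 in RM1, with a larger ratio in RM1, 1.72 against 1.07 (adjusted p 0.0315, 0.739 in DESeq2). Ptgs1, the constitutive cyclooxygenase whose window is printed above, had 107 counts in M0, 3 in M1, 78 in RM0 and 19 in RM1, and its ratio was -1.71 against -4.15. This was the widest gap above M1 among genes at least 2-fold changed in M1 and averaging 50 counts or more over the 4 libraries. Over the 12 members read, 4 were at least 2-fold higher and 1 lower.

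Most oxidative and metabolic genes stayed within 2-fold. Among 15 genes of reactive oxygen and the NRF2 response, 3 were at least 2-fold higher, Cybb, Sod2 and Hmox1, against 6.16% of all genes, and the same 3 were higher in M1. Hmox1, which degrades haem, had 3144 counts in M0, 11536 in M1, 3145 in RM0 and 6092 in RM1, with 1.19 against 2.30 (adjusted p 8.23e-08). Sod2 had 2643 counts in RM0 and 6231 in RM1, with 1.47 against 2.18. Among 20 genes of glycolysis and HIF1A targets, 4 were higher and 1 lower, with a median of 0.12 against 0.43 in M1. The ratio in the irradiated pair lay below that in M1 for 15 of the 20 and above it for 5. Over all genes 5765 lay below and 5804 above. Among those below were Aldoa, at 0.29 against 0.9, Hk3, at -0.45 against 0.57, and Gapdh, at 1.25 against 2.82. Gapdh had only 203 counts in RM0 and 413 in RM1, while Aldoa had 60640 and 63208. Why Gapdh was counted so low was not tested, and its ratio is uncertain. Pfkfb3, which raises the flux through phosphofructokinase, had 2667 counts in RM0 and 16413 in RM1, with 2.85 against 2.96. Hif1a had 2766 counts in M0, 2992 in M1, 2815 in RM0 and 5989 in RM1, and its ratio of 1.32 against 0.54 passed as larger (adjusted p 0.00277, 0.0531 in DESeq2). None of the 20 genes of the TCA cycle differed by 2-fold in either pair.

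Tlr4, the LPS receptor, and 3 other pattern sensors stood lower after polarization, by less in RM1 than in M1. Among 21 Toll-like receptors and pattern sensors, 2 were at least 2-fold higher and 3 lower in RM1, against 3 and 7 in M1. Tlr4 had 1199 counts in M0, 219 in M1, 1149 in RM0 and 711 in RM1, a ratio of -0.46 (-0.597 to -0.323) against -2.02 (difference 1.35, adjusted p 5.8e-09). Tlr13 had 469 counts in RM0 and 201 in RM1, with -0.98 against -2.55, and Tlr7 had 935 and 625, with -0.35 against -1.31. Nlrp3, the inflammasome sensor, had 2119 and 663 counts, with -1.44 against -2.31. All 4 were lower in both polarized libraries, with the smaller fall in the irradiated pair. Tlr2 was at 0.63 against -0.15, while Cd14, the co-receptor of LPS, was at 0.41 against 0.35. Over the 21 sensors the ratio in the irradiated pair lay above that in M1 for 16 and below it for 5. Over all genes 5804 lay above and 5765 below. The shares of all genes at least 2-fold changed in RM1 were 6.16% higher and 7.87% lower. Among 18 NF-kB subunits and feedback inhibitors, 2 were at least 2-fold higher, Nfkbia and Tnfaip3, against that share of 6.16%. Nfkbia, which encodes the inhibitor IkB-alpha, had 6990 counts in RM0 and 17571 in RM1, with 1.56 against 1.59, and Tnfaip3, which encodes A20, had 619 and 1841, with 1.80 against 2.80.

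Macrophage identity genes went both ways. Of 17 read, 4 were at least 2-fold higher and 3 lower in RM1, with a median of -0.01, against 5 and 3 in M1 with a median of 0.36, and the 3 lower ones were those of M1. The 4 higher ones were Fcgr1, Maf, Emr1 and Fcgr3. Csf1r, the M-CSF receptor, had 13259 counts in M0, 4855 in M1, 14190 in RM0 and 5561 in RM1, with -1.12 against -1.03. Cx3cr1, the fractalkine receptor printed above, had 572 counts in RM0 and 66 in RM1, with -2.85 (-3.27 to -2.51) against -2.42, and its window held no match. Fcgr1, the high-affinity IgG receptor, rose from 1000 to 4628 counts, with 2.44 against 2.83. The second marker pair of the study concerned IL-4, with CD206 read as protein by flow cytometry. Mrc1, the gene of CD206, was counted 10 times in M0, 50 in M1, 5 in RM0 and 26 in RM1. It was at least 2-fold higher in both pairs, while Arg1 had at most 5 counts in these 4 libraries. Of 16 genes in the list of the IL-4 response, 6 were not read, 4 of them at 0 counts in both RM0 and RM1. Of the 10 read, 4 were at least 2-fold higher and 1 lower, against 5 and 2 in M1. For this list and the identity list, the shares of all genes in RM1 were 6.16% higher and 7.87% lower.

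DNA replication genes stood lower in RM1 and mitotic genes divided. Of 20 replication genes, 9 were at least 2-fold lower and 0 higher, with a median of -0.82, against 11 lower with a median of -1.03 in M1. Mcm3, a subunit of the replicative helicase, had 1441 counts in M0, 247 in M1, 924 in RM0 and 207 in RM1, with -1.92 against -2.11. Pole, a DNA polymerase, had 195 counts in RM0 and 25 in RM1, with -2.65 against -2.67. RM0 was already below M0 for this list, at a median of -0.62 on the log2 scale, and the difference passed for 0 of 20 genes by edgeR, with 4 of 20 at an unadjusted p under 0.05 and 2 called by library totals. DESeq2 gave an adjusted p for 4 of the 20 and called 0. Of 20 mitotic genes, 6 were at least 2-fold lower, and the median was 0.01 against -0.73 in M1. Kif20a fell from 91 to 8 counts, while the proliferation marker Mki67 had 935 counts in M0, 407 in M1, 431 in RM0 and 383 in RM1, with 0.06 against -0.77. For this list the median log2 ratio was -0.81 in RM0 against M0 and -0.39 in RM1 against M1. Among 20 p53 targets, 2 were higher, Fas and Plk2, and 0 lower, against 3 and 2 in M1. The shares of all genes were 6.16% higher and 7.87% lower. The ratio in the irradiated pair lay above that in M1 for 15 of the 20 p53 targets and below it for 5. Over all genes 5804 lay above and 5765 below. Fas was among the targets below, at 2.51 against 3.29, and Ccng1 among those above, at 0.85 against 0.36. Cdkn1a, which encodes the cell cycle inhibitor p21, had 11704 counts in M0, 18089 in M1, 15258 in RM0 and 21973 in RM1, with 0.76 against 1.05.

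**Figure D3:**
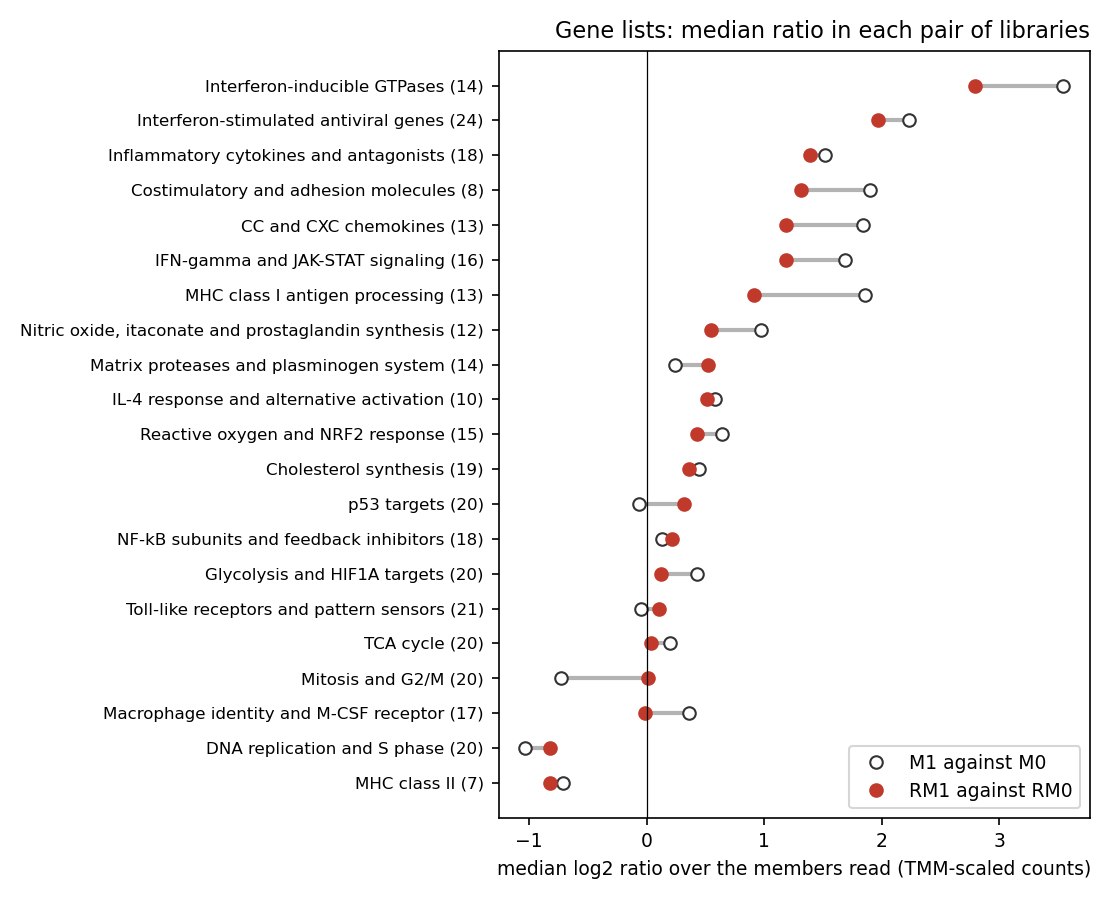
Median log2 ratio of 21 gene lists in M1 against M0 (open points) and RM1 against RM0 (red points), with the number of members read in RM1 against RM0 in parentheses. The median is 2.79 and 3.54 for the GTPases and 0.91 and 1.86 for MHC class I, while cytokines differ by less and replication genes are below 0 in both.

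The single genes with the largest rises in RM1 were led by Il33 (chromosome 19, 29925114 to 29960715), an alarmin cytokine, with 235 counts in M0, 26557 in M1, 1093 in RM0 and 33813 in RM1. Its ratio was 5.18 (5.1 to 5.27) against 7.23, and RM1 was no lower than M1, the gap being in RM0, 2.22 above M0 on the log2 scale. U90926, a non-coding transcript, showed the same order, with 26, 2486, 153 and 3917 counts and a ratio of 4.89 against 6.89. Cfb, the complement factor B, had 32, 4367, 84 and 2138 counts in M0, M1, RM0 and RM1, with 4.87 against 7.42, and Saa3, an acute phase protein, had 136, 6345, 218 and 4149, with 4.47 against 5.95. Slfn1, which restrains the growth of T cells, had 58, 3333, 136 and 3502 counts, with 4.90 against 6.22. All of these had the smaller ratio in the irradiated pair, and Il33, U90926 and Slfn1 had their highest raw counts in RM1. Sprr2f, Sprr2g and Sprr2i, small proline-rich proteins whose reads may be divided between copies, reached 5207, 2083 and 1341 counts in RM1, above their counts in M1. Timp1, an inhibitor of matrix proteases, had 11, 280, 4 and 163 counts, and the 2 ratios were nearly the same, 4.98 and 4.84, although the difference fitted with RM2 and M2 was -1.62.

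The largest falls were those of Aatk, an apoptosis-associated kinase, from 118 to 4 counts, a ratio of -4.14, of the kinetochore gene Kntc1, from 166 to 8, of the transcript AI506816, from 182 to 9, and of Ranbp3l, from 142 to 7. 2810417H13Rik, which encodes a PCNA-binding factor, fell from 138 to 15 counts, Dmpk from 288 to 35 and Pi16 from 213 to 30. Their ratios lay between -3.87 and -2.53, and each was also at least 2-fold lower in M1. The positions in the tables span only 15.1% of the 2810417H13Rik gene in the annotation, 5.69% of Cd74, 12.7% of Il1b, 13.1% of Ccl4, 14.4% of H2-D1, 15.6% of Kif20a, 19.8% of Il1a, 30.2% of Nfkbia, 48.3% of Saa3, 48.8% of Ifi47 and 52.2% of Ptgs1, so where their reads were counted is uncertain.

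Among the genes whose M1 ratio fell short most, AA467197 and Mir147, which overlap, had 526 and 225 counts in M1 and 135 and 65 in RM1. Serpina3f had 0 counts in RM0, 29 in RM1 and 594 in M1, and was at least 11.4-fold higher in RM1 than 3 counts in RM0 allow. Aim1l had 35 counts in M0, 146 in M1, 90 in RM0 and 54 in RM1, and was higher in M1 and not in RM1, at 2.41 and -0.49. On the other side Thbd, which encodes the anticoagulant thrombomodulin, had 315 counts in M0, 25 in M1, 662 in RM0 and 340 in RM1, with a ratio of -0.73 against -3.15 (difference 2.42, adjusted p 1.68e-11). Jrk, Dsn1 and Ccne2 had 31, 29 and 31 counts in RM1 and 4, 10 and 9 in M1, but only 1.1% and 12.5% of the annotated Jrk and Ccne2 genes lie within their listed positions.

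The 10 genes with an M1 rise that passed as larger after irradiation were named after their values were seen. They were H2-T3, Cxcl3, Akap12, Crispld2, Flrt3, Serpinb2, Marcks, Ulbp1, Ccrn4l and Ptgs2. Akap12, a scaffold of protein kinases, had 116 counts in M0, 307 in M1, 198 in RM0 and 1701 in RM1, with 3.32 against 1.81 (adjusted p 2.77e-09). Serpinb2, which inhibits plasminogen activators, had 1268, 2877, 2300 and 10551 counts, with 2.43 against 1.60 (adjusted p 0.00154, 0.0374 in DESeq2). H2-T3 had 0, 11, 0 and 52 counts and belongs to a family of near-identical genes. Serpinb2 is also a member of the list of matrix proteases and the plasminogen system, of which 7 of 14 were at least 2-fold higher and 2 lower in RM1, against 5 and 4 in M1.

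A few genes passed 2-fold in RM1 and stayed within 0.5 of no change in M1. The highest were 4632434I11Rik, from 55 counts in RM0 to 155 in RM1, Cd300lh from 42 to 112, H2-Q2 from 94 to 239, Gm15421 from 36 to 88, and Prc1, a spindle midzone gene, from 120 to 275. The difference passed for 4632434I11Rik and Prc1 (adjusted p 1.08e-05 and 0.000851) and not for the other 3. H2-Q2 had 351 counts in M0 and 327 in M1. Its log2 ratio was -1.86 in RM0 against M0 and -0.62 in RM1 against M1. Its rise therefore came with a low RM0 and not with a level above M1. In RM1 against M1 the ratio was 1.64 for 4632434I11Rik, 1.15 for Cd300lh, 0.63 for Gm15421 and 0.26 for Prc1. In RM0 against M0 it was -0.32, -0.05, -0.54 and -0.71 in that order. The lowest were Gnb1l, from 58 to 17, Smyd5 from 924 to 301, Amhr2 from 91 to 29, the glucose transporter Slc2a6 from 1915 to 689 and Lmo2 from 280 to 100. For Smyd5 and Slc2a6 the difference passed (adjusted p 0.00264 and 0.000367).

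**Figure D4:**
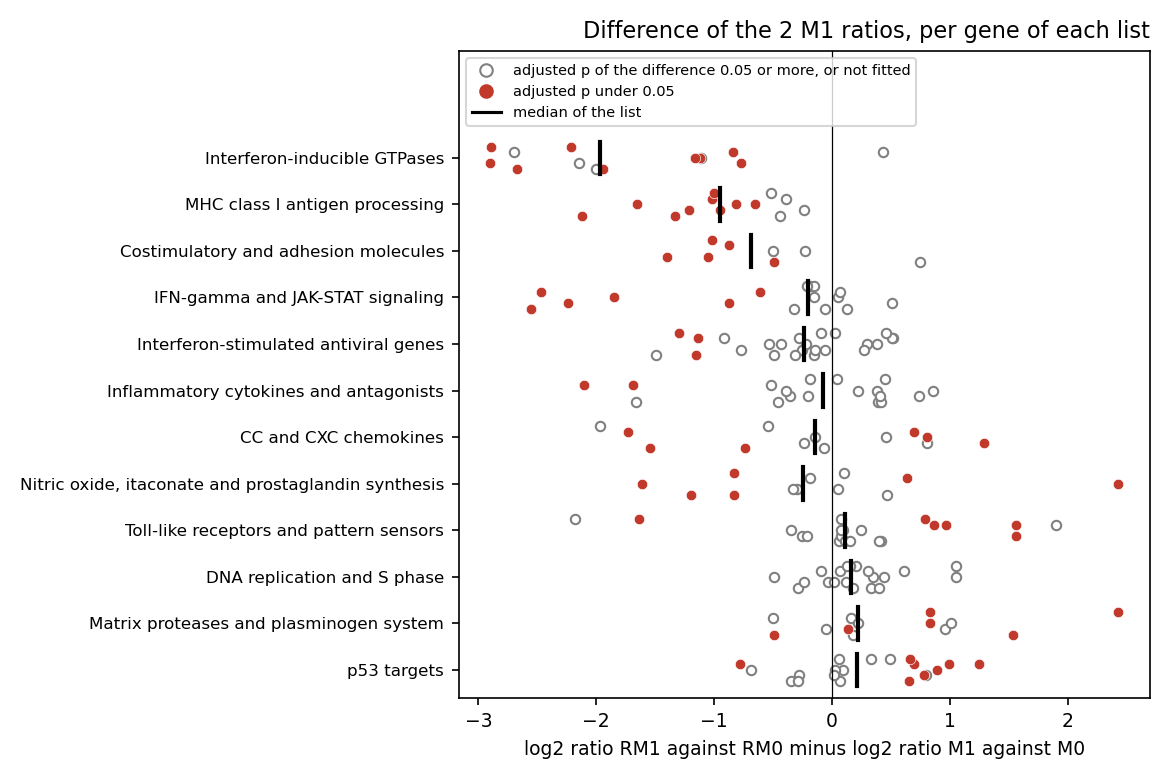
Log2 ratio of RM1 against RM0 minus that of M1 against M0 for the members of 12 lists, with the list median as a black bar and red points where the fitted difference passed at an adjusted p under 0.05. The GTPases centre on -1.97 and MHC class I on -0.95, and the Toll-like receptors and p53 targets hold more red points above 0 than below.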

How the data were processed

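RNA was measured by RNA-seq in 6 libraries, 1 per condition. Per the submitters' processing notes, reads were trimmed with Trimmomatic (version 0.36), aligned with HISAT2 (version 2.2.1) to mm10 and counted with HTSeq (version 0.11.3), and the authors deposited raw counts per RefSeq gene, with no normalization. How the counting treated strand was not given in the sources used here. The 6 tables were joined on symbol and identifier, which left 24062 genes, of which 8137 had 0 counts in every library, 27 symbols had been turned into dates and 2 were repeated. Groups came from the labels.

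Counts were scaled by TMM in edgeR (version 4.0.16, R version 4.3.3), with factors from genes with at least 10 counts in 3 libraries. Log2 ratios used a prior count of 2. Both fits used edgeR's quasi-likelihood test over genes with at least 10 counts in 2 libraries, with Benjamini-Hochberg adjustment at 0.05. They had 2 and 1 residual degrees of freedom, and their p-values measure the spread between these pooled libraries, not between cultures. Scripts were tested on simulated data. The floor was 3 counts, and intervals cover counting error only.

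The genes and the 25 lists were chosen with earlier results of these data known. Named were the study's polarization markers, the 10 highest and 10 lowest ratios at a mean of at least 50 counts, members of the lists, the 5 genes on each side whose ratio departed most from M1, and the 5 on each side 2-fold changed in RM1 and within 0.5 on the log2 scale in M1. GC content came from GENCODE M21 and promoter windows from RefSeq (GRCm38.p6).

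Alternatives were DESeq2 (version 1.42.0), library totals, a prior count of 0.25, other count filters, a 4-fold threshold, fits without M2 and RM2 or without the irradiation term and, added after the data had been seen, TMM over all genes and removal of the GC trend in 20 bins. The remaining steps ran in Python (version 3.11.15), with scipy 1.17.1, matplotlib 3.10.9, pandas 2.3.3 and numpy 2.4.6.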

Additional observations from a re-analysis of the deposited data

Results flagged for a closer look

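The M1 effect differed between irradiated and non-irradiated cells at 992 of 11804 genes by the edgeR test of the difference, which rests on 1 residual degree of freedom and on libraries that each stand for a condition. At an unadjusted p under 0.05 it was 2712 genes. Values below are the fitted log2 difference of the M1 effect, irradiated minus non-irradiated cells. Radiation and time in culture cannot be told apart in it.

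Among genes named above that M1 raised, the difference was -3.62 for AA467197, -2.79 for Gbp5, -2.75 for Gbp2b, -2.21 for Aim1l, -2.08 for Cfb, -1.62 for Timp1 and for Il33, -1.36 for U90926, -1.3 for Saa3, -1.14 for Nos2, -0.86 for Slfn1 and -0.77 for Cd86. For Timp1, whose fit also draws on M2 and RM2, the plain ratios stood in the opposite order, 4.98 for RM1 against RM0 and 4.84 for M1 against M0. For Il33, U90926, Cfb and Slfn1 DESeq2 did not pass the difference, with adjusted p from 0.344 to 0.901, while it passed Nos2, Gbp2b and Saa3.

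Among genes that M1 lowered, the difference was 2.75 for Jrk, 2.67 for Ptgs1, 2.42 for Thbd, 2.36 for Dsn1, 2.24 for Ccne2 and 1.43 for Pi16. Among genes within 0.5 of no change in M1 it was 1.92 for 4632434I11Rik, 1.09 for Prc1, -0.8 for Smyd5 and -0.81 for Slc2a6.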

How the results depend on the processing

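No ratio of at least 2-fold among the single genes compared changed sign under the alternatives tried. By library totals 1493 genes were lower in RM1 than in RM0, and 353 and 1263 of the genes higher and lower in M1 stood the same way in RM1. With the count minimum raised to 50 it was 598 lower genes. At 4-fold, by construction, 216 genes were higher and 124 lower, and 163 and 79 stood with M1. The difference after irradiation was called at 152 genes by DESeq2, at 1634 by library totals and at 400 with no filter beyond 1 count. The cause was not tested. The split between larger and smaller was 460 and 532 in the main setting and 1405 and 229 by library totals, and for the shared effect 2739 and 2824 became 1141 and 4772. DESeq2 size factors and a prior count of 0.25 moved none of 125 single ratios beyond its counting interval, and library totals moved 53. Of 24 list medians library totals moved 15 and removal of the GC trend 4, among them MHC class I, to 1.10. Medians of the NF-kB, Toll-like receptor, glycolysis, TCA and mitosis lists came to lie below 0 by library totals.

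No paired analysis was possible because each condition has 1 library and the labels give no shared replicate numbers. Leaving out a library of RM1 or RM0 would leave no ratio. At this depth no ratio is given where both counts were 3 or fewer, and the lack of replicates limits the rest.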
